A study of Homo sapiens with 18 samples.

Results

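Mitochondrial ribosomal protein genes were taken as every gene whose symbol has the form MRPL or MRPS followed by a number and, at most, the letter A or B. The rule found 74 symbols. In the table of the inhibitor experiment they made 75 of 21391 listed features, 48 with an MRPL and 27 with an MRPS symbol, since MRPL30 was listed under 2 identifiers. In the table of the siRNA experiment they made 74 of 18350 features, 47 with an MRPL and 27 with an MRPS symbol. A gene was tested where its mean over the libraries of a table was at least 1, which left 73 of 13337 tested genes in the inhibitor table and 73 of 12701 in the siRNA table. Both MRPL30 features fell below that level in the inhibitor table and MRPL53 did in the siRNA table, so 72 of the genes were tested in both. MRPS18C lies outside the rule, and MRPS21, MRPL45 and MRPL58 were not analysed here under those symbols.

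RNA of LNCaP, a human prostate cancer line that responds to androgen, was sequenced in 18 libraries, which form 9 groups with 2 libraries per group. Cells of the inhibitor experiment received 10 uM of UPF1069, olaparib or veliparib, compounds that inhibit poly(ADP-ribose) polymerases, for 24 h, or DMSO for 24 h. Cells of the siRNA experiment were transfected for 72 h with siPARP1-A or siPARP1-B against PARP1, with siPARP2-A or siPARP2-B against PARP2, or with the control siRNA siNC. All groups were grown in RPMI medium with serum and come from 1 cell line, and the labels do not say how the 2 libraries of a group were kept apart, so p-values measure the spread between these libraries. Bulk RNA values cannot tell apart fewer cells expressing a gene from less RNA per cell.

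The mitochondrial ribosome sits in the mitochondrial matrix and translates the mRNAs of the mitochondrial genome, which encode core subunits of the respiratory chain and of the ATP synthase. Its RNAs come from mitochondrial DNA, but every one of its proteins is encoded in the nucleus, made in the cytosol and imported. MRPL genes mostly encode proteins of the large subunit, which forms peptide bonds, and MRPS genes mostly encode proteins of the small subunit, which binds the mRNA and decodes it. Some names mislead: MRPS30 and MRPS18A are found in the large subunit, and MRPS36 is now regarded as a subunit of the oxoglutarate dehydrogenase complex.

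The inhibitor libraries hold 26.4 to 35.7 M reads each and the siRNA libraries 15.4 to 18.6 M, and 3 reads make 0.084 to 0.113 counts per M reads (CPM) among the inhibitor libraries and 0.169 to 0.207 among the siRNA libraries, whose values are given here as normalised reads per M. PARP1 stood at 4.78 and 5.67 normalised reads per M with siPARP1-A and at 8.99 and 9.05 with siPARP1-B, against 452 and 479 with siNC. PARP2 stood at 3.06 and 2.56 with siPARP2-A and at 1.78 and 1.01 with siPARP2-B, against 28.96 and 25.84 with siNC. siPARP2-B also lowered PARP1, to 161 and 145 against 452 and 479 with siNC (log2 fold change −1.60, adjusted p = 7.66e-16), so that group has less of both mRNAs. The other siRNAs had smaller called falls of the mRNA they do not target. PARP2 had log2 fold changes of −0.335 with siPARP1-A (limma adjusted p = 0.0417) and −0.512 with siPARP1-B (0.00429). PARP1 had −0.211 with siPARP2-A (0.0194). All 10 prostate luminal genes on the marker list had a mean of at least 1 in both tables. Of 7 stromal markers 5 were listed, summing to at most 23.0 CPM and 12.1 normalised reads per M, and of 8 leukocyte and endothelial markers 3 and 2 were listed, summing to at most 11.4 CPM and 8.56 normalised reads per M. The luminal sum was 2534 to 2567 CPM with olaparib, against 4900 to 4981 with DMSO. It was 3196 to 3238 normalised reads per M with siPARP1-A, 5017 to 5091 with siPARP1-B, 2876 to 2921 with siPARP2-A and 1906 to 1940 with siPARP2-B, against 5766 to 6190 with siNC. The stromal sum was 8.59 to 8.98 with siPARP1-A and 10.8 to 12.1 with siPARP2-B, against 3.90 to 3.91 with siNC, and the leukocyte and endothelial sum was 8.23 to 8.56 with siPARP2-B, against 1.82 to 2.24 with siNC. The part of these marker sums in the results below was not tested.

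Promoters of mitochondrial ribosomal protein genes are shown for 4 members on which the results turn, as the 250 bases before the RefSeq transcription start (build GRCh38.p14), read 5′ to 3′ along the gene. MRPS34 encodes a mitochondria-specific small-subunit protein and fell with all 3 inhibitors on the deposited values. MRPL17 encodes a large-subunit protein and had the largest fall with olaparib. MRPS10 encodes a protein of the small-subunit head and rose with all 4 PARP siRNAs. MRPL11 encodes a protein at the base of the stalk that recruits translation factors, and had the largest fall with siPARP1-A. Capitals mark the letters CCGGAAG, bound by ETS factors such as GABP, or GCGCATGCG, bound by nuclear respiratory factor 1, on either strand.
MRPS34 promoter (chr16:1773135-1773384, minus strand): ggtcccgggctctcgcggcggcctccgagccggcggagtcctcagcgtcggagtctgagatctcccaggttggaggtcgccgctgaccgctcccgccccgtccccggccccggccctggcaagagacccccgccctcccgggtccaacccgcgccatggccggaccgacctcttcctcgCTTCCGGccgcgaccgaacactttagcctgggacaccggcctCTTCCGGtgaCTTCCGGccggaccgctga
MRPL17 promoter (chr11:6683341-6683590, minus strand): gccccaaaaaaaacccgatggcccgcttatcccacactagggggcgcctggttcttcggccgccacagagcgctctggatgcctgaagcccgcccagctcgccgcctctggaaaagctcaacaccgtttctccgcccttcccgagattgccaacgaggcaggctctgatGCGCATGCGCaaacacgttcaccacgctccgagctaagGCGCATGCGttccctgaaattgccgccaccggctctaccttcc
MRPS10 promoter (chr6:42217862-42218111, minus strand): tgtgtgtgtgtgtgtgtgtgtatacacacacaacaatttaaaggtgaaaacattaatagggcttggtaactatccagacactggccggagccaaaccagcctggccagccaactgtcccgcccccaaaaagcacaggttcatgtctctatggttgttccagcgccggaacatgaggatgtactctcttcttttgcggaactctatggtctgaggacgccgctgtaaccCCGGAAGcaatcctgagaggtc
MRPL11 promoter (chr11:66438849-66439098, minus strand): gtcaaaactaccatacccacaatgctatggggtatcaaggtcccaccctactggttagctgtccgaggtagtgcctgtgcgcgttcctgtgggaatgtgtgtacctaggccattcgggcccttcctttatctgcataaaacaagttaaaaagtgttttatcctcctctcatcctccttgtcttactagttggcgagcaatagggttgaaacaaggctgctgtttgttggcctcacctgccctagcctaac
MRPS34 carried 3 matches to the ETS letters, MRPS10 carried 1, MRPL17 carried the nuclear respiratory factor letters at 2 places, at one of them on both strands, and MRPL11 carried neither.

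A promoter was at hand for 65 of the genes. The ETS letters occurred in 22 of the 65 (33.8%), against 10.2% of 27305 RefSeq genes with a promoter of the same length. That set, called all genes in this paragraph, was not limited to genes tested or expressed in these cells. AAGATGGCG, bound by YY1, occurred in 4.6% of the members and 0.8% of all genes, and GCGCATGCG in 3.1% and 2.0%. GGGCGG, bound by SP factors, occurred in 56.9% against 46.2%, and CCAAT in 29.2% against 37.0%, and no member held matches of 2 different motifs that shared a base. A transcription start on the other strand, facing away within 1000 bases, lay beside 24 of the 65 members (36.9%), against 20.1% of all genes. MRPS11 and MRPL46, which encode a small-subunit and a large-subunit protein, start 320 bases apart and face away from each other. Such matches are letters only and say nothing of binding in these cells.

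In control cells the summed level of the tested and untested members was 6283 and 6440 CPM with DMSO and 6922 and 6954 normalised reads per M with siNC. Per kilobase of the longest coding transcript, the highest mean levels with DMSO were those of MRPL41 (222 CPM per kb), MRPL20 (186), MRPS34 (181) and MRPL37 (179). With siNC the highest were MRPL20 (243 normalised reads per M per kb), MRPL41 (227), MRPL3 (196) and MRPL37 (168). MRPL41, MRPL20 and MRPL37 were thus among the 4 highest in the controls of both experiments. At the other end, the lowest levels among tested members were 0.918 CPM per kb for MRPL53, 2.25 for MRPL38 and 2.91 for MRPS24 with DMSO, and 1.20 for MRPL38 and 2.15 for MRPL30 with siNC. MRPL53 stood at 0.899 and 1.24 CPM with DMSO and at 0.779 and 0.632 normalised reads per M with siNC.

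Counting limits how some of these levels can be read. MRPL30 in the siRNA table stands under an identifier that GENCODE v29 gives another name, AC079447.1, and 72.3% of its exonic bases are shared with other genes, so its values are uncertain. MRPS24, a small-subunit protein gene, had 2.21 and 2.12 CPM with DMSO but 90.8 and 102 normalised reads per M with siNC, and 23.2% of its exonic bases are shared with the read-through gene URGCP-MRPS24. MRPL12 shares 68.2% of its exonic bases with AC139530.2 on the same strand, and MRPS18A shares 47.0% with RSPH9 on the other strand. The library kit does not mark strand, so reads of overlapping genes cannot be told apart, and for 31 members GENCODE names at least 1 pseudogene after them.

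With siPARP2-A, 61 of the 73 tested genes rose, MRPL49 alone fell, and the median log2 fold change over siNC was 0.38. Among all genes tested, 49.4% were called in either direction (24.5% rose and 24.9% fell) and the median was −0.002. Genes of both symbol classes took part: 23 of 27 MRPS genes rose and none fell, and 38 of 46 MRPL genes rose and 1 fell. These counts go by symbol, so MRPS30, MRPS18A and MRPS36 stand among the MRPS genes. Of 46 members with a bacterial counterpart 40 rose, and of 25 specific to mitochondria 19 rose and 1 fell. The summed level of the members was 8590 and 8881 with siPARP2-A, against 6922 and 6954 with siNC, which is 0.7804% and 0.7913% of the library against 0.6205% and 0.6504%. The libraries of the 2 groups did not overlap for 67 of the 73 members (91.8%), against 72.9% of all genes tested.

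MRPL2, which encodes a large-subunit protein near the site of peptide bond formation, stood at 42.2 and 43.4 normalised reads per M with siPARP2-A, against 24.2 and 24.2 with siNC. It had the largest rise of the family, with a log2 fold change of 0.80 (SE 0.075, adjusted p = 3.68e-09). MRPL1, a protein of the mobile stalk beside the exit site for tRNA, stood at 116 and 115 with siPARP2-A, against 69.6 and 63.6 with siNC (log2 fold change 0.78, SE 0.067, adjusted p = 6.53e-10). In both genes each siPARP2-A library lay above each siNC library. MRPS12, a small-subunit protein at the decoding centre, stood at 142 and 157 with siPARP2-A, against 87.4 and 100.3 with siNC (0.67, SE 0.068). MRPS34 stood at 164.5 and 172.3 with siPARP2-A, against 109 and 113 with siNC (0.60, SE 0.059). MRPS17 and MRPL48, from the small and the large subunit, rose by 0.57 and 0.56 on the log2 scale. MRPS17 is expressed at a low level, 18.5 and 18.3 with siPARP2-A against 12.3 and 11.7 with siNC.

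MRPL49, a mitochondria-specific large-subunit protein gene, was the exception. Its level was 172 and 173 with siPARP2-A, against 196 and 215 with siNC, a log2 fold change of −0.25 (SE 0.062, adjusted p = 0.00167). A total of 11 members did not pass the test, with log2 fold changes between −0.024 for MRPL41 and 0.20 for MRPL38, which is expressed at a low level. They include MRPL37 (−0.007), MRPL22 (−0.017), MRPL9 (−0.013), MRPS14 (0.021), MRPS24 (0.068), MRPL34 (0.12), MRPS26 (0.14), MRPS35 (0.14) and MRPL30 (0.19). The 7 genes named as having the largest changes kept their calls under each of 22 other ways of processing or leaving out a library.

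With siPARP2-B, the other sequence against PARP2, 35 of the 73 members rose and 16 fell (median 0.14), where 66.1% of all genes tested were called (30.9% rose and 35.2% fell, median −0.026). The summed level was 7168 and 7148 with siPARP2-B, against 6922 and 6954 with siNC. As a share of the library it was 0.7431% and 0.7275%, against 0.6205% and 0.6504% with siNC. Members moved farther apart from each other than with siPARP2-A, between −0.87 and 0.88 on the log2 scale. The libraries of the 2 groups did not overlap for 59 members (80.8%), against 80.8% of all genes tested. MRPL2 again rose, to 45.1 and 45.9 against 24.2 and 24.2 with siNC (0.88, SE 0.075, adjusted p = 1.52e-10). MRPS10 rose to 98.7 and 94.5 against 54.7 and 50.7 with siNC (0.86, SE 0.065, adjusted p = 1.62e-11). MRPL10, a stalk protein of the large subunit, rose to 55.1 and 61.5 against 32.7 and 32.9 with siNC (0.81, SE 0.086). MRPS6, a small-subunit protein with a bacterial counterpart, rose by 0.75 and MRPL46 by 0.67. MRPL30 rose by 0.88 under the uncertain identifier, to 9.28 and 7.83 against 3.96 and 4.42 with siNC.

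The falls with siPARP2-B were led by MRPL15, a large-subunit protein gene, at 60.01 and 60.81 with siPARP2-B against 114 and 109 with siNC (−0.87, SE 0.058, adjusted p = 1.82e-12). MRPS24 stood at 59.0 and 62.6 with siPARP2-B, against 90.8 and 102 with siNC (−0.65, SE 0.067). MRPL19 stood at 90.8 and 91.3 with siPARP2-B, against 132 and 128 with siNC (−0.51, SE 0.057). None of these siPARP2-B libraries overlapped a siNC library. MRPL41, MRPS14 and MRPL37 fell by 0.48, 0.44 and 0.42 on the log2 scale, and with siPARP2-A the same 3 genes had values between −0.024 and 0.021 that did not pass the test.

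Set directly against each other, the 2 PARP2 sequences differed in 49 members: 43 were higher with siPARP2-A and 6 lower than with siPARP2-B (median 0.22), where 64.8% of all genes tested differed (34.3% higher and 30.6% lower, median 0.022). Groups did not overlap for 61 members (83.6%), against 81.1% of all genes. The largest difference was in MRPL15, at 154 and 153 with siPARP2-A against 60.01 and 60.81 with siPARP2-B (1.33, SE 0.058, adjusted p = 4.34e-16). MRPL19 differed by 0.92, at 175 and 172 against 90.8 and 91.3. MRPS34 differed by 0.77, MRPS17 and MRPS25 by 0.75 each, and MRPS27, a small-subunit protein gene, by 0.74. In the other direction the differences of siPARP2-A from siPARP2-B were −0.45 for MRPL10, −0.39 for MRPS31, −0.35 for MRPS10, −0.31 for MRPS6, −0.19 for MRPL22 and −0.69 for MRPL30. The call of MRPL22 was lost without either siPARP2-A library or siPARP2-B replicate 1.

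Both PARP2 sequences gave a rise over siNC in 33 members (45.2%), against 11.9% of all genes tested, and a fall in MRPL49 (1.37%), against 13.9%. Opposite calls were found for 8 members (11.0%), against 10.8% of all genes. These 8 rose with siPARP2-A and fell with siPARP2-B: MRPL15, MRPL19, MRPL32, MRPL42, MRPS7, MRPS25, MRPS27 and MRPS34. MRPS34 and MRPS7 lost their siPARP2-B call without siNC replicate 2 or siPARP2-B replicate 1 and with DESeq2. MRPL42 lost it under 8 of 22 alternatives: without siNC replicate 1 or siPARP2-B replicate 2, with edgeR, with DESeq2, with DESeq2's size factors, in a fit of the compared groups alone, and with the GC and length correction in both of its forms. Both sequences share the siNC libraries, and siPARP2-B differs from siPARP2-A in its PARP1 level as given above, a difference whose part was not tested.

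**Figure D1:**
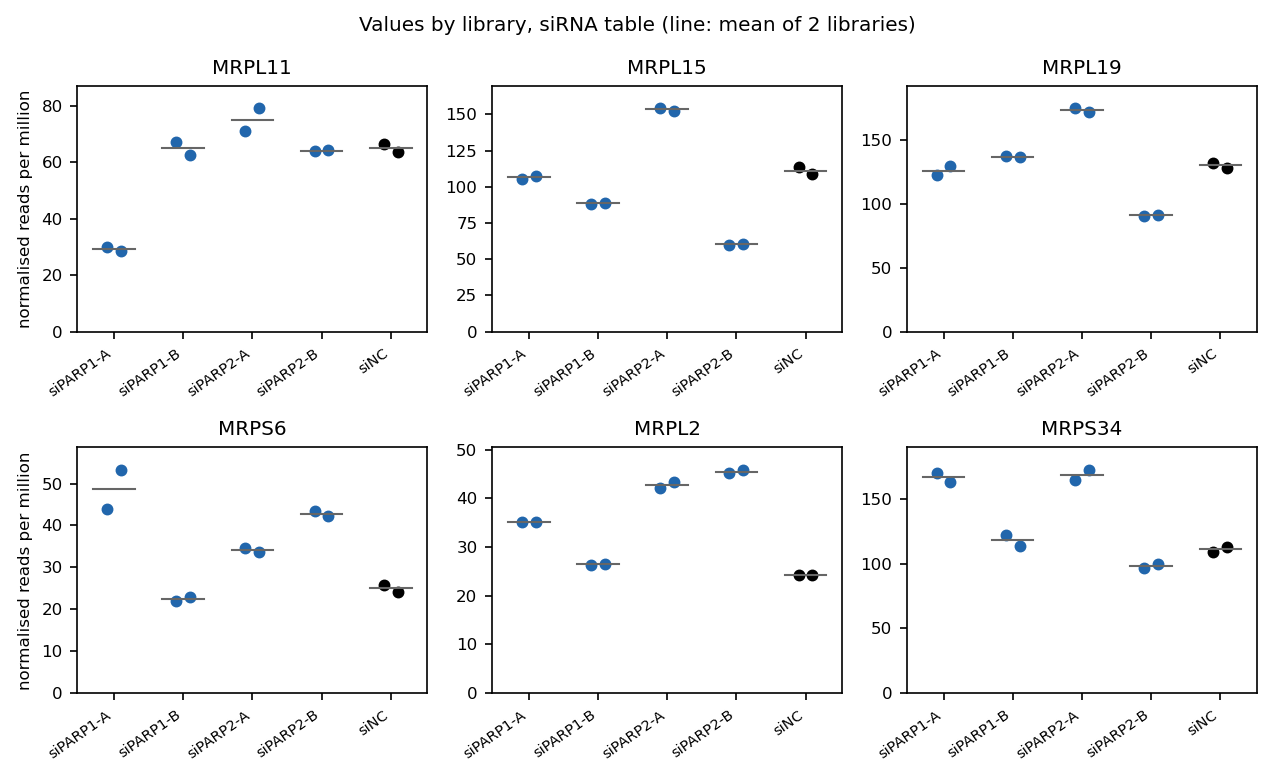
Normalised reads per M (vertical axis, from 0) in each library of the siRNA experiment for 6 mitochondrial ribosomal protein genes, with siPARP1-A, siPARP1-B, siPARP2-A and siPARP2-B in blue and siNC in black. Points are libraries and the line is the mean of 2; MRPL11 is low with siPARP1-A, MRPL15 and MRPL19 are high with siPARP2-A and low with siPARP2-B, and MRPL2 is high with 3 of the 4 siRNAs.

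With siPARP1-A, 32 members rose and 10 fell (median 0.12), where 54.4% of all genes tested were called (25.5% rose and 28.9% fell, median −0.009). The summed level was 7346 and 7450 with siPARP1-A, against 6922 and 6954 with siNC. As a share of the library it was 0.7101% and 0.7183%, against 0.6205% and 0.6504% with siNC. Groups did not overlap for 58 members (79.5%), against 76.2% of all genes. MRPS6 had the largest rise, to 44.0 and 53.3 with siPARP1-A against 25.9 and 24.2 with siNC (0.92, SE 0.086, adjusted p = 1.97e-09). Its 2 siPARP1-A libraries lay farther apart than those of any other group for that gene, yet both were above every siNC library. MRPS34 stood at 170.0 and 163.2 with siPARP1-A, against 109 and 113 with siNC (0.58, SE 0.059). MRPL39, a mitochondria-specific large-subunit protein gene, stood at 94.6 and 95.7 against 64.5 and 62.2 with siNC (0.58, SE 0.064). MRPL2, MRPL43 and MRPL18 rose by 0.52, 0.47 and 0.45 on the log2 scale.

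The largest fall with siPARP1-A was that of MRPL11, to 29.99 and 28.54 with siPARP1-A against 66.6 and 63.7 with siNC (−1.13, SE 0.071, adjusted p = 1.34e-12). With the other siRNA against PARP1 it stood at 67.3 and 62.7, with a log2 fold change over siNC of −0.005 (95% interval −0.152 to 0.141), and the direct difference of siPARP1-A from siPARP1-B was −1.12 (SE 0.071, adjusted p = 1.60e-12). The MRPL11 promoter, shown above, held none of the capitalised letters. Among the 65 members with a promoter at hand, 33.8% held the ETS letters and 3.1% the nuclear respiratory factor letters. Any link to the fall was not tested. MRPL37, which encodes a mitochondria-specific large-subunit protein, stood at 186 and 191 with siPARP1-A, against 271.0 and 259.5 with siNC (−0.49, SE 0.059). MRPS17 fell by 0.47, MRPS35 by 0.44, MRPL49 by 0.40 and MRPS27 by 0.32 on the log2 scale. MRPS35 stood at 172 and 175 with siPARP1-A, against 256 and 218 with siNC.

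With siPARP1-B more members fell than rose, as among all genes tested: 6 members rose and 20 fell (median −0.070). Of all genes tested 40.4% were called (16.4% rose and 23.9% fell, median −0.031). With edgeR 6 members rose and 15 fell, and with DESeq2 6 rose and 14 fell, with a median of −0.038 in both. The count of called members went down to 13 without siPARP1-B replicate 2 and to 17 without siNC replicate 2. The summed level was 6803 and 6586 with siPARP1-B, against 6922 and 6954 with siNC. Its share of the library, 0.6365% and 0.6169%, overlapped that with siNC, 0.6205% and 0.6504%. Groups did not overlap for 51 members (69.9%), against 67.9% of all genes. MRPS17 had the largest fall, at 9.46 and 7.81 with siPARP1-B against 12.3 and 11.7 with siNC (−0.44, SE 0.114, adjusted p = 0.00335), a call that was lost without siPARP1-B replicate 2. MRPS9, a small-subunit protein with a bacterial counterpart, stood at 36.4 and 33.9 with siPARP1-B, against 47.3 and 45.8 with siNC (−0.40, SE 0.071). MRPL36, MRPL15, MRPL35 and MRPL10 fell by 0.34, 0.33, 0.33 and 0.32, the last 2 without a call when siPARP1-B replicate 2 was left out. MRPL42 and MRPL48, both mitochondria-specific large-subunit protein genes, had the largest rises (0.35 and 0.32, SE 0.059 and 0.074). MRPL42 stood at 259.7 and 260.4 with siPARP1-B, against 209.8 and 197.2 with siNC.

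Directly compared, siPARP1-A exceeded siPARP1-B in 43 members and was below it in 6 (median 0.23), where 54.8% of all genes tested differed (28.4% higher and 26.5% lower, median 0.022). Groups did not overlap for 66 members (90.4%), against 78.0% of all genes. The largest differences were 1.07 for MRPS6, 0.75 for MRPL39, 0.61 for MRPL13 and MRPS12, 0.57 for MRPL23, which lies at the exit of the peptide tunnel, and 0.49 for MRPS34. Beside MRPL11, lower levels with siPARP1-A were found for MRPS35 (−0.66), MRPL37 (−0.42), MRPS25 (−0.34), MRPL49 (−0.31) and MRPS27 (−0.25). Over siNC, 5 members (MRPL18, MRPL42, MRPL48, MRPS10 and MRPS36) rose with both sequences, 6.85% against 7.83% of all genes tested, and MRPL35 and MRPS17 fell with both, 2.74% against 11.4%. Opposite calls were found for 8 members, 11.0% against 7.04% of all genes: MRPL13, MRPL20, MRPL23, MRPL39, MRPL47, MRPS11 and MRPS12 rose with siPARP1-A and fell with siPARP1-B, and MRPS35 did the reverse. Several of these siPARP1-B calls rest on single libraries: MRPS35 and MRPS11 lost theirs without siNC replicate 2 or siPARP1-B replicate 2, MRPL20 without siPARP1-B replicate 2, MRPL23 without either siNC library or siPARP1-B replicate 2, and MRPL47 without siNC replicate 1 or either siPARP1-B library. MRPL23 and MRPL47 also lost theirs with edgeR and with DESeq2, and MRPL47 in a fit of the compared groups alone. MRPL39 lost its siPARP1-B call under 11 of 22 alternatives. With siPARP1-A the call of MRPL47 was lost without siNC replicate 2 and that of MRPS11 without siNC replicate 1.

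**Figure D2:**
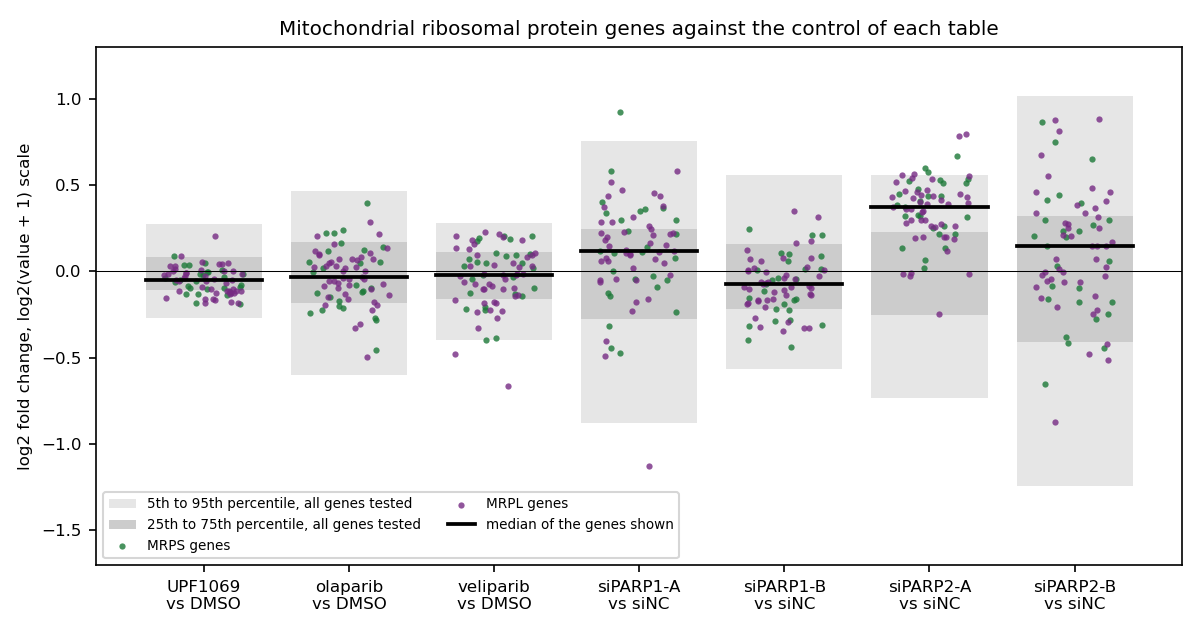
log2 fold change on the log2(value + 1) scale (vertical axis) of each tested mitochondrial ribosomal protein gene over DMSO or siNC in 7 comparisons (horizontal axis), MRPS genes in green and MRPL genes in purple. Grey boxes span the 25th to 75th and 5th to 95th percentiles of all genes tested, and the black line is the median of the genes shown; with siPARP2-A the median of 0.38 lies above the 75th percentile of all genes.

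The mean of both PARP2 siRNAs was set against the mean of both PARP1 siRNAs: 50 members were higher and 6 lower (median 0.20), where 65.5% of all genes tested differed (33.3% higher and 32.2% lower, median 0.009). MRPL10 led, with 39.0 and 46.0 for siPARP2-A and 55.1 and 61.5 for siPARP2-B, against 36.8 and 34.0 for siPARP1-A and 27.0 and 25.1 for siPARP1-B (0.69, SE 0.061, adjusted p = 3.47e-10). Every PARP2 siRNA library lay above every PARP1 siRNA library for this gene. MRPS31, MRPS17, MRPL1, MRPL35 and MRPS5 followed, with log2 differences of 0.66, 0.65, 0.60, 0.56 and 0.55. In 26 of the 73 members (35.6%) the 4 PARP2 siRNA libraries did not overlap the 4 PARP1 siRNA libraries, against 22.1% of all genes tested. Without siPARP1-B replicate 1 the 6 lower members went down to 3. The 2 sequences of a target differed from each other as described above, so this mean covers unlike groups.

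MRPS10, MRPL18 and MRPS36 were the members called higher than siNC with all 4 siRNAs, 4.11% of those tested against 2.77% of all genes. No member was called lower with all 4, against 4.05% of all genes. MRPS10 had log2 fold changes of 0.36 with siPARP1-A, 0.25 with siPARP1-B, 0.51 with siPARP2-A and 0.86 with siPARP2-B. MRPL18, a protein of the central protuberance of the large subunit, stood at 190.0 and 192.1 with siPARP1-A, 155.7 and 156.1 with siPARP1-B, 193.6 and 212.5 with siPARP2-A and 176.5 and 176.4 with siPARP2-B, against 139.9 and 138.5 with siNC. For MRPS36 the log2 fold changes in the same order were 0.37, 0.21, 0.51 and 0.44. The siPARP1-B values were the smallest for each of the 3 genes, and these calls were lost for MRPS10 without siNC replicate 2, for MRPL18 without any 1 of the 4 libraries compared, and for MRPS36 without siNC replicate 1 or either siPARP1-B library and with the GC and length correction. All 4 comparisons share the siNC libraries. MRPL34 and MRPL38 (2.74%) were called with none of the siRNAs, against 10.7% of all genes.

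Members with the ETS letters in the promoter, 21 of which were tested in each table, were set beside 43 tested members without them, a split made after values were seen. With siPARP2-A 18 of 21 rose and none fell, against 34 and 1 of 43, with medians of 0.40 and 0.36. With siPARP2-B 14 of 21 rose and 2 fell, against 15 and 13 of 43, with medians of 0.25 and −0.023. With siPARP1-A 9 rose and none fell, against 18 and 9, with medians of 0.119 and 0.121. With siPARP1-B 3 of 21 rose and 6 fell, against 2 and 9 of 43, with medians of −0.10 and −0.067. With UPF1069 none rose and 6 of 21 fell, against none and 4 of 43, with medians of −0.098 and −0.036. With olaparib 3 rose and 6 fell, against 7 and 13, and with veliparib 5 and 5, against 6 and 15. These are counts, and no test of the difference was made.

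In the inhibitor experiment, with UPF1069, which is sold as a PARP2 inhibitor, no member rose and 14 of 73 fell (median −0.052), where 24.3% of all genes tested were called (10.3% rose and 14.0% fell, median −0.018). The summed level of the members was 6083 and 6101 CPM with UPF1069, against 6283 and 6440 with DMSO. MRPS34 had the largest fall, to 166 and 165 CPM with UPF1069 against 186 and 191 with DMSO (−0.19, SE 0.04, adjusted p = 0.00163). MRPL2 stood at 41.2 and 41.1 with UPF1069, against 47.0 and 46.7 with DMSO (−0.18, SE 0.052, adjusted p = 0.0118). MRPL4, a large-subunit protein that lines the peptide tunnel, MRPS9, MRPL15 and MRPL35 fell by 0.18, 0.18, 0.18 and 0.17.

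MRPS34 kept its call with UPF1069 under each of 20 alternatives. MRPL4 lost it without DMSO replicate 1 or UPF1069 replicate 1, MRPL15 without DMSO replicate 2 or UPF1069 replicate 1, and MRPL2, MRPL35 and MRPS9 without any 1 of the 4 libraries compared and with DESeq2. The count of 14 went down to 3 without any 1 of those 4 libraries and up to 28 without either veliparib library, whose replicates differed by a chi-square per gene of 5.64, against 1.28 to 1.99 in the other groups of that table. In the siRNA table this chi-square was 7.7 with siNC, the shared control, 5.94 with siPARP2-B and 2.54 to 3.81 with the other siRNAs. The libraries of UPF1069 and DMSO did not overlap for 50 of 73 members (68.5%), against 66.5% of all genes tested.

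With olaparib, an inhibitor of PARP1 and PARP2, 12 members rose and 21 fell (median −0.033), where 52.5% of all genes tested were called (25.8% rose and 26.8% fell, median 0.001). The summed level was 6224 and 6146 CPM with olaparib, against 6283 and 6440 with DMSO, and groups did not overlap for 53 members (72.6%), against 78.5% of all genes. Without DMSO replicate 1 the rises went down to 6, and without DMSO replicate 2 the falls went down to 13. MRPL17 had the largest fall, to 126.5 and 120.5 CPM with olaparib against 172.4 and 177.0 with DMSO (−0.50, SE 0.045, adjusted p = 4.59e-09). MRPS18A, a large-subunit protein despite its symbol, stood at 24.9 and 23.3 with olaparib, against 34.2 and 32.4 with DMSO (−0.45, SE 0.06). MRPL11 stood at 51.6 and 51.3 with olaparib, against 63.2 and 66.4 with DMSO (−0.33, SE 0.047). No olaparib library overlapped a DMSO library in these 3 genes, and MRPL4, MRPS2 and MRPS26 fell by 0.30, 0.28 and 0.27.

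The rises with olaparib were led by MRPS6, at 23.8 and 24.8 CPM with olaparib against 17.7 and 18.6 with DMSO (0.40, SE 0.066, adjusted p = 2.65e-05). MRPL54, a mitochondria-specific large-subunit protein gene, stood at 57.8 and 54.1 with olaparib, against 45.3 and 45.9 with DMSO (0.29, SE 0.053). MRPS10, MRPS14, MRPS36 and MRPL28 rose by 0.24, 0.22, 0.22 and 0.22. MRPS36 lost its call without DMSO replicate 1 or olaparib replicate 1.

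With veliparib, also an inhibitor of PARP1 and PARP2, 14 members rose and 21 fell (median −0.018), where 40.4% of all genes tested were called (17.2% rose and 23.2% fell, median −0.003). The summed level was 6150 and 6169 CPM with veliparib, against 6283 and 6440 with DMSO, and groups did not overlap for 53 members (72.6%), against 66.2% of all genes. MRPL12, a stalk protein that contacts translation factors, had the largest fall, to 29.5 and 23.9 CPM with veliparib against 41.9 and 43.2 with DMSO (−0.66, SE 0.068, adjusted p = 1.32e-07). MRPL4 stood at 79.8 and 86.1 with veliparib, against 118 and 113 with DMSO (−0.48, SE 0.044, adjusted p = 3.18e-08). MRPS18A, MRPS24, MRPL34 and MRPL41 fell by 0.40, 0.39, 0.33 and 0.24, with MRPS24 at the low level of 1.75 and 1.13 CPM with veliparib against 2.21 and 2.12 with DMSO. MRPL13, MRPL36, MRPS33, MRPS36, MRPL33 and MRPL50 rose by 0.20 to 0.23. The count of called members went down to 18 without DMSO replicate 1 and to 22 without DMSO replicate 2. MRPL13, MRPL33, MRPL50 and MRPS36 lost their calls without DMSO replicate 1, MRPL50 and MRPS36 also without veliparib replicate 1, and MRPS24 without either DMSO library or veliparib replicate 2.

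The veliparib changes ran with base composition. Over the 73 members the Spearman correlation between the GC content of the longest coding transcript and the log2 fold change was −0.706, and over 13075 genes of the same libraries it was −0.698. Once each library's log2 values had been corrected for both GC content and transcript length, the correlation over the members was 0.038 and the count was 13 higher and 13 lower, in place of 14 and 21. The correction takes out a trend with GC content over all genes by design (−0.009 after it), whatever its source. MRPL41 (71.9% GC) then had a log2 fold change of 0.31 in place of −0.24, MRPS26 0.15 in place of −0.14, and MRPS34 0.098 in place of −0.22. MRPL12 (64.6% GC) remained lower at −0.34, MRPS18A at −0.26, MRPL34 at −0.24, MRPL17 at −0.23 and MRPL4 at −0.13. MRPL36 (65.2% GC) stood at 0.53 in place of 0.22. MRPL33, MRPS36 and MRPS24 lost their veliparib calls with the correction, at 0.046, 0.099 and −0.239 (adjusted p = 0.475, 0.203 and 0.229). For olaparib the correlation was −0.39 over the members and −0.114 over all genes, and over the members −0.269 after the correction. For UPF1069 it was −0.195 over the members and 0.11 over all genes, of opposite sign, and over the members −0.403 after the correction.

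**Figure D3:**
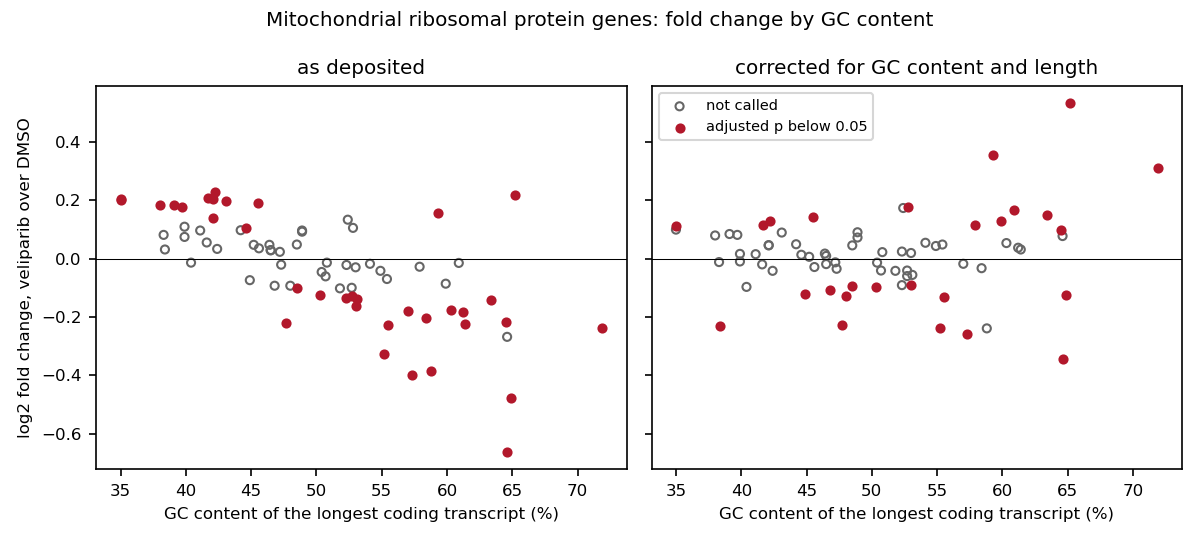
log2 fold change of veliparib over DMSO (vertical axis) against the GC content of the longest coding transcript in percent (horizontal axis) for 73 mitochondrial ribosomal protein genes, from the deposited values (left) and from values corrected for base composition and transcript length (right). Filled points have an adjusted p below 0.05. The Spearman correlation is −0.706 on the left and 0.038 on the right, after a correction that takes out the trend over all genes by design.

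MRPL4, MRPL17, MRPS26 and MRPS34 fell with all 3 inhibitors, which is 5.48% of the members tested, against 3.07% of all genes tested. No member rose with all 3, against 1.42% of all genes. All 3 comparisons share the DMSO libraries. MRPL4 was 101 and 102 CPM with UPF1069, 94.9 and 92.1 with olaparib and 79.8 and 86.1 with veliparib, against 118 and 113 with DMSO. MRPL17 was 158.6 and 159.9 with UPF1069, 126.5 and 120.5 with olaparib and 142.1 and 157.7 with veliparib, against 172.4 and 177.0 with DMSO. Every inhibitor library lay below every DMSO library for both genes. MRPS26, which encodes a mitochondria-specific small-subunit protein, had log2 fold changes of −0.13, −0.27 and −0.14 in the same order, and MRPS34 of −0.19, −0.11 and −0.22. The UPF1069 call of MRPL17 was lost under 10 of 20 alternatives: without any 1 of the 4 libraries compared or either olaparib library, with edgeR, with DESeq2, with DESeq2's size factors and with no filter on low values. The UPF1069 call of MRPS26 was lost without any 1 of the 4 libraries compared and with DESeq2, the olaparib call of MRPS34 without any 1 of the 4 libraries compared, and the veliparib call of MRPS26 without DMSO replicate 1. With the GC and length correction MRPS26 and MRPS34 were higher with veliparib, as given above. A total of 18 members (24.7%) were called with none of the inhibitors, against 26.4% of all genes.

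**Figure D4:**
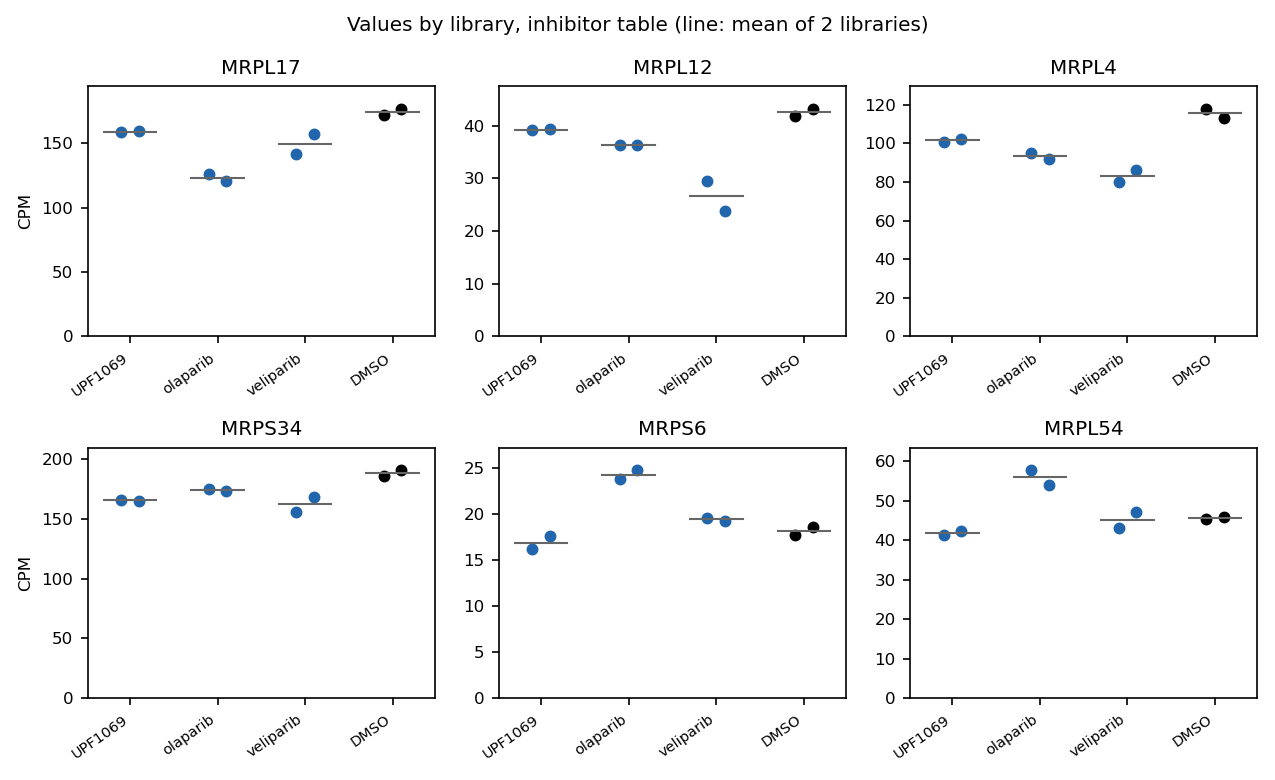
CPM (vertical axis, from 0) in each library of the inhibitor experiment for 6 mitochondrial ribosomal protein genes, with UPF1069, olaparib and veliparib in blue and DMSO in black. Points are libraries and the line is the mean of 2; MRPL17 is lowest with olaparib, MRPL12 and MRPL4 are lowest with veliparib, and MRPS6 and MRPL54 are highest with olaparib.

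The 3 compounds were given at the same dose and time and were compared in 3 pairs. UPF1069 exceeded olaparib in 12 members and was below it in 20 (median −0.027), where 51.2% of all genes tested differed (24.2% higher and 27.0% lower). Groups did not overlap for 58 members (79.5%), against 78.5% of all genes. MRPL17 was higher with UPF1069 by 0.36 (95% interval 0.27 to 0.46, adjusted p = 6.32e-07), MRPS18A by 0.32 and MRPS2 by 0.28. MRPS6 differed by −0.50 (−0.64 to −0.36, adjusted p = 1.71e-06) and MRPL54 by −0.41. Without UPF1069 replicate 2 the count went down to 20 in all and the 20 lower members to 11, and without any of the other 3 libraries compared the lower members went down to 13. For MRPS34 the interval of the difference was −0.158 to 0.009, and the test was not passed (adjusted p = 0.127).

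UPF1069 exceeded veliparib in 16 members and was below it in 23 (median −0.042), where 50.8% of all genes tested differed (25.9% higher and 24.9% lower). Groups did not overlap for 56 members (76.7%), against 72.5% of all genes. After the GC and length correction the split was 8 higher and 25 lower. The count of 39 fell to 23 without UPF1069 replicate 1 and to 24 without UPF1069 replicate 2. MRPL12 was higher with UPF1069 by 0.55 (0.41 to 0.69) and MRPL34 by 0.31. MRPL38, MRPL4, MRPS18A and MRPS2 were higher by 0.35, 0.29, 0.27 and 0.22, calls that were lost with the correction. In the other direction MRPS9 differed by −0.37 (−0.49 to −0.26) and MRPL36 by −0.33. Olaparib exceeded veliparib in 17 members and was below it in 13 (median −0.026), where 59.5% of all genes tested differed (31.7% higher and 27.7% lower). Groups did not overlap for 49 members (67.1%), against 76.2% of all genes. With the correction the split was 18 higher and 27 lower, and without veliparib replicate 2 the lower members went up to 22. MRPL12 was higher with olaparib by 0.44, MRPL28 by 0.39 and MRPL41 by 0.31, the last of which stood at −0.21 after the correction. MRPL36, MRPL39 and MRPL11 differed by −0.41, −0.33 and −0.31. For MRPS26 the difference between UPF1069 and veliparib was 0.007, with an interval of −0.075 to 0.089.

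**Figure D5:**
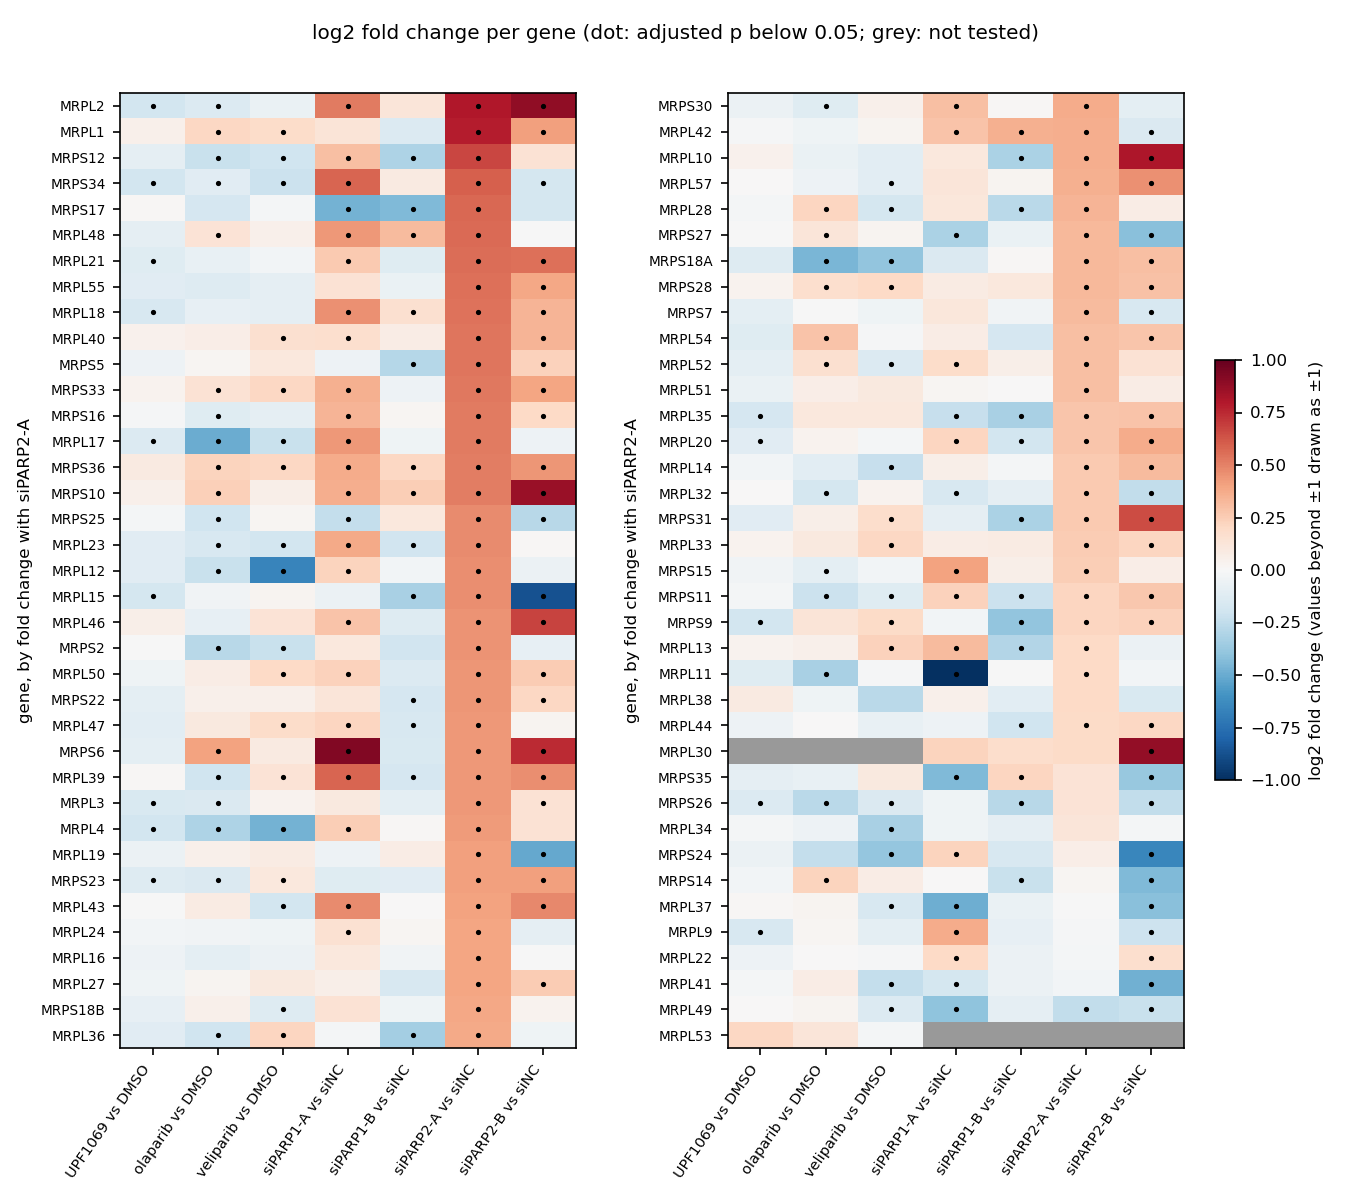
log2 fold change (colour, red higher and blue lower than DMSO or siNC, values beyond 1 drawn as 1) of each mitochondrial ribosomal protein gene (rows) in 7 comparisons (columns), ordered by the change with siPARP2-A. Dots mark an adjusted p below 0.05 and grey marks a gene that was not tested; the siPARP2-A column is above 0 for all but 5 of the tested genes and MRPL11 is the darkest blue with siPARP1-A.

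Other genes of mitochondrial gene expression were read beside the ribosomal proteins. Of all genes tested, 24.5% rose and 24.9% fell with siPARP2-A. With siPARP2-A 13 of 15 genes for maintenance and transcription of mitochondrial DNA rose and none fell, among them POLG2, the accessory subunit of the mitochondrial DNA polymerase (0.69). Of 24 genes for assembly of the mitochondrial ribosome 18 rose and 1 fell, with GTPBP10, a GTPase of large-subunit assembly, at 0.68 and TFB1M, which methylates the small-subunit RNA, at 0.61. Of 17 genes for translation and mRNA stability 12 rose and 2 fell, with SLIRP, which binds and stabilises mitochondrial mRNAs, at 0.60 and TUFM, the elongation factor that brings tRNA, at 0.59. The medians of the 3 lists were 0.40, 0.33 and 0.30, beside −0.002 for all genes tested. Ribosomal proteins with other symbols were counted apart: 4 of 5 of the small and 2 of 2 of the large subunit rose, with MRPS18C at 0.82.

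With siPARP2-B the same lists had calls in both directions, where 30.9% of all genes tested rose and 35.2% fell. Of the 15 genes for mitochondrial DNA 3 rose and 6 fell, with TFAM, the factor that packages mitochondrial DNA, at −1.08. Of the assembly genes 9 rose and 5 fell, and of the translation genes 7 rose and 3 fell, with GFM1, a mitochondrial elongation factor, at 0.74. Of 9 tested regulators of nuclear genes for mitochondria 3 rose and 1 fell with siPARP2-A, and 3 rose and 3 fell with siPARP2-B. GABPA, the DNA-binding subunit of GABP, had log2 fold changes of 0.40 with siPARP2-A and 0.40 with siPARP2-B, and GABPB1, its partner, −0.34 and −0.92. Cytosolic ribosomal protein genes rose in 64 of 75 with siPARP2-A (median 0.28) and fell in 43 of 75 with siPARP2-B (median −0.19), whereas the mitochondrial ones had medians of 0.38 and 0.14.

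Nuclear genes for oxidative phosphorylation, the machinery whose core subunits the mitochondrial ribosome makes, rose in 50 of 73 and fell in 2 with siPARP2-A (median 0.24). Of all genes tested, 24.5% rose and 24.9% fell. With siPARP1-B 3 of 73 rose and 43 fell (median −0.22), beside 6 and 20 of the mitochondrial ribosomal proteins. Here 16.4% of all genes tested rose and 23.9% fell. With olaparib 35 of 74 rose and 5 fell (median 0.10), beside 12 and 21 of the mitochondrial ribosomal proteins. Here 25.8% of all genes tested rose and 26.8% fell. With UPF1069 47 of 74 cytosolic ribosomal protein genes rose and none fell (median 0.13), while no mitochondrial one rose. Here 10.3% of all genes tested rose and 14.0% fell. The 13 mRNAs of the mitochondrial genome, matched in the siRNA table, varied widely between replicates. COX3, a cytochrome oxidase subunit, averaged 4593 ± 1041 with siPARP2-A and 4094 ± 1731 with siNC (SD, n = 2 each). Of the 13, 3 rose with siPARP2-A, 4 with siPARP1-B and 2 with siPARP1-A, with no falls, and with siPARP2-B 1 rose and 3 fell. Among all genes tested, 24.5%, 16.4%, 25.5% and 30.9% rose in that order, and 24.9%, 23.9%, 28.9% and 35.2% fell.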

How the data were processed

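RNA of LNCaP cells was prepared with RNeasy columns and a NEBNext Ultra RNA library kit, per the labels' protocols. The submitters' processing notes name HTSeq 0.6.1, TopHat2 2.1.0, edgeR 3.12.0, bcl2fastq 2.18 and the build hg19, without their roles. The inhibitor table holds CPM as deposited by the authors, with column sums near 1 M. The siRNA table holds a normalised signal per gene as deposited by the authors, reads per M of a scaled library size, whose column sums were 964647 to 1122367. In both, 100% of values were within 0.01 of a whole number of reads once divided by the step of their library, and these reads gave the depths. The 2 tables were scaled apart, so tests ran within a table.

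Tests used limma 3.58.1, with the variance trend over mean level, in R 4.3.3 on log2(value + 1), in one fit over all groups of a table, keeping genes whose mean reached 1, with Benjamini-Hochberg adjustment over all genes tested and a threshold of 0.05. Fold changes are on the log2(value + 1) scale, which understates low genes. Residual degrees of freedom were 4 for the inhibitor and 5 for the siRNA table, beside prior degrees of freedom of 17.6 and 19. The variance used for a gene thus rests more on the trend over all genes than on that gene's own libraries. edgeR 4.0.16 (quasi-likelihood) and DESeq2 1.42.0 ran on the recovered reads as alternatives, besides other size factors, pseudocounts, filters, a replicate block, a correction for GC content and length, and each library left out. The fit was also run on simulated counts with known changes, drawn without a trend with GC content. Its outcome is not given here and lends no support to the results.

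Genes named were, per comparison, up to 6 members with the largest rise and up to 6 with the largest fall among those called with groups that did not overlap, members called alike by all inhibitors or all siRNAs, members called in opposite directions by the 2 sequences of a target, and the 4 highest and 4 lowest per kb in the controls. MRPL11 with siPARP1-B and a few values beside a named gene were added after values were seen. The members and the other gene lists were chosen with earlier results of these data known. Lengths, GC content and overlaps came from GENCODE v29 (GRCh38) and promoters from RefSeq (GRCh38.p14), neither of the authors' build, so no coordinates of the authors' build were used. The promoter motifs were also chosen with results known, and the nuclear respiratory factor letters were shortened by 1 base after a first count. No RefSeq promoter was at hand for MRPL2, MRPL10, MRPL13, MRPL15, MRPL21, MRPL23, MRPL35, MRPS28 and MRPS36.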

Additional observations from a re-analysis of the deposited data

Results flagged for a closer look

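For 16 mitochondrial ribosomal protein genes the 2 siRNA sequences against the same target gave calls in opposite directions over siNC. The direct comparison of the 2 sequences, tested with limma over all genes, passed for each (adjusted p between 4.34e-16 and 8.32e-06). Opposite calls over shared siNC libraries imply a larger direct difference, so passing it adds no support. Opposite calls made 11.0% of members against 7.04% of all genes tested for PARP1, and 11.0% against 10.8% for PARP2. Values are the log2 difference of sequence A from sequence B, with 2 libraries per group. Between siPARP1-A and siPARP1-B the differences were 0.746 for MRPL39, 0.607 for MRPL13, 0.606 for MRPS12, 0.57 for MRPL23, 0.449 for MRPS11, 0.398 for MRPL20 and 0.377 for MRPL47, and −0.655 for MRPS35. MRPL39 rose by 0.58 with siPARP1-A and fell by 0.17 with siPARP1-B, and MRPS35 fell by 0.44 and rose by 0.21 in the same order. Between siPARP2-A and siPARP2-B the differences were 1.331 for MRPL15, 0.922 for MRPL19, 0.774 for MRPS34, 0.749 for MRPS25, 0.743 for MRPS27, 0.512 for MRPL32, 0.505 for MRPL42 and 0.475 for MRPS7. MRPL15 rose by 0.46 with siPARP2-A and fell by 0.87 with siPARP2-B. A called difference between the 2 sequences is no rarity in these tables: 54.8% of all genes tested differed between the PARP1 sequences and 64.8% between the PARP2 sequences.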

How the results depend on the processing

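Among the 184 calls of named genes, 145 held under every alternative, and of 3901 values under alternatives 3765 kept call and direction, 122 lost the call and 14 changed sign. The named genes were picked among called ones, and some alternatives left out a library of a group not compared. These counts are thus no measure of reliability. The sign changes came with the correction for GC content and length, with and without the replicate block: for veliparib over DMSO MRPL41 stood at 0.309, MRPS26 at 0.15 and MRPS34 at 0.098, for UPF1069 over veliparib MRPL38 stood at −0.005, MRPL4 at −0.076 and MRPS2 at −0.041, and for olaparib over veliparib MRPL41 stood at −0.206. The 14 members called with UPF1069 became 28 in a fit of only the groups compared, 23 with the GC and length correction, with or without the block, 5 with DESeq2 and 10 with edgeR, and 3 to 28 with a library left out; the cause was not tested. With a library left out, the counts ran from 18 to 46 for veliparib over DMSO, 20 to 43 for UPF1069 over olaparib, 23 to 47 for UPF1069 over veliparib and 13 to 27 for siPARP1-B over siNC. For siPARP2-A over siNC they ran from 56 to 62, and under the other alternatives from 57 to 62. The split of UPF1069 over olaparib was 12 higher and 13 lower with DESeq2, that of olaparib over veliparib 14 and 17 with edgeR, and that of veliparib over DMSO 2 and 16 without DMSO replicate 1. Differences between replicates 1 and 2 correlated between groups at −0.06 to 0.03 in the inhibitor table and −0.141 to 0.115 in the siRNA table. These values cannot decide whether the numbers pair libraries, since the noise of single libraries enters them too. With the replicate number as a block the counts of called members were 12 for UPF1069, 31 for olaparib, 33 for veliparib, 42 for siPARP1-A, 25 for siPARP1-B, 62 for siPARP2-A and 51 for siPARP2-B over their controls. The order of levels between genes is given per kb, with transcript lengths from an annotation that is not the authors'. MRPL53 and MRPS24 in the inhibitor table had means of 1.18 and 1.84 CPM and so rest on few reads, and 2 libraries per group limit every comparison.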
